A study of Mus musculus with 4 samples.

Results

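Primordial germ cells (PGCs) are the founders of sperm and eggs. The cells described here are those that the deposited annotation names PGCs, 957 of the 52745 cells in the table. All cells with that name were taken, with no further selection: 556 from XY control gonads, 165 and 152 from XY knockout gonads of an earlier and a later stage, and 84 from XX control gonads. The study asked what loss of the miR-17~92 microRNA cluster does to the XY gonad at the time of sex determination, and profiled whole gonads with the attached mesonephros by droplet single-cell RNA-seq.

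There were 4 samples and 1 sample per group, each a pool of several pairs of gonads. The labels give the strain of all 4 samples as C57BL/6 x 129S4/SvJae, whereas the study's methods give only C57BL/6J and 129 for these embryos. The XY KO embryos, collected at E11.5 (E11.5 KO) and at E11.75 (E11.75 KO), carried a homozygous CRISPR/Cas9 deletion of the cluster in every cell. Edited embryonic stem (ES) cells of the G4 line were aggregated with tetraploid embryos, which leaves the fetus to the ES cells. XY controls at E11.5 came from the unedited G4 line by the same method, so that E11.5 KO differs from its control by the deletion, by whatever else the edited ES cells had acquired, and as a separate pool and set of libraries. XX controls at E11.5 came instead from breeding C57BL/6J males with 129 females. No XY control of E11.75 was analysed, and stage and deletion cannot be told apart in the E11.75 comparison. The 3 comparisons below draw on the same XY control and thus share its counting error. Since each group was a single sample, no p-value is given anywhere, and the intervals of shares, CPM and log2 ratios are 95% intervals that cover counting error only.

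PGCs arise outside the gonad, migrate through the hindgut and reach the genital ridge shortly before the stages studied here. On arrival they still express pluripotency genes such as Pou5f1 and Sox2, have erased most DNA methylation, and in XX embryos reactivate the silent X chromosome. In the gonad they are licensed for gametogenesis through DAZL, switch on late germ cell genes such as Ddx4, and only afterwards follow signals of the surrounding somatic cells toward oogenesis with meiosis (retinoic acid and BMP) or toward male development (NODAL and its targets). MicroRNAs of the miR-17~92 cluster lower their target mRNAs by pairing of the seed, bases 2 to 8, with sites in 3′ UTRs.

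The mature sequences of the deleted cluster are shown because the target sites given below are defined by them. They lie on the plus strand of chromosome 14 between 115043684 and 115044496 (RefSeq, GRCm38.p6), are printed 5′ to 3′ with the seed in capitals, and form 4 seed families, with miR-17 and miR-20a sharing one seed and miR-19a and miR-19b another.
mmu-miR-17-5p: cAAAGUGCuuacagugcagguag
mmu-miR-20a-5p: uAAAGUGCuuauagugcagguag
mmu-miR-18a-5p: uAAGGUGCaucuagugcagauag
mmu-miR-19a-3p: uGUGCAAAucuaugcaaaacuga
mmu-miR-19b-3p: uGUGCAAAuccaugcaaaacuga
mmu-miR-92a-3p: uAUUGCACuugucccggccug

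PGCs made up a smaller share of gonadal cells in both KO samples than in the XY control, and, before a difference in cell filters is considered, than in the XX control. Their share was 7.66% in the XY control (7.06 to 8.30%), 3.46% in E11.5 KO (2.96 to 4.02%), 5.00% in E11.75 KO (4.25 to 5.83%) and 8.55% in the XX control (6.87 to 10.5%). The intervals of the KO samples did not overlap those of the XY control. The technical replicates of a sample (called runs here, with at most 0.344% of cell barcodes in common) gave 8.37% and 6.95% in the XY control, 3.81% and 3.17% in E11.5 KO, and 9.23% and 7.78% in the XX control, so each KO run lay below each control run. A lower share can reflect fewer PGCs or more cells of other types, which a share cannot tell apart.

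PGCs held more RNA molecules per cell than their neighbours. The median number of unique molecular identifiers (UMIs, 1 per captured mRNA molecule) was 11990.5 in XY control PGCs, 12156 in E11.5 KO, 9279.5 in E11.75 KO and 40644 in the XX control. The other gonadal cells held 4219.5, 4835.5, 4296 and 16178, so that PGCs were 2.84, 2.51, 2.16 and 2.51 times as deep. Depth bears on the shares. Before deposit, XY cells with 30000 or more UMIs or 7000 or more genes had been removed, whereas the XX sample had been filtered by cluster. In the XX control 64 of 84 PGCs stood at or over one of these limits, and without such cells its share of PGCs was 2.40% (20 of 835 cells), below both KO samples, so that the order against the XX control turns with the filter. The deepest XY control PGC held 28405 UMIs, and how many XY PGCs were removed by the limits was not tested. The study's limits on mitochondrial and beta globin UMIs also differed between the XY samples. A cluster that held only XY control cells was removed by hand. The effect of these steps on the shares was not tested.

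**Figure D1:**
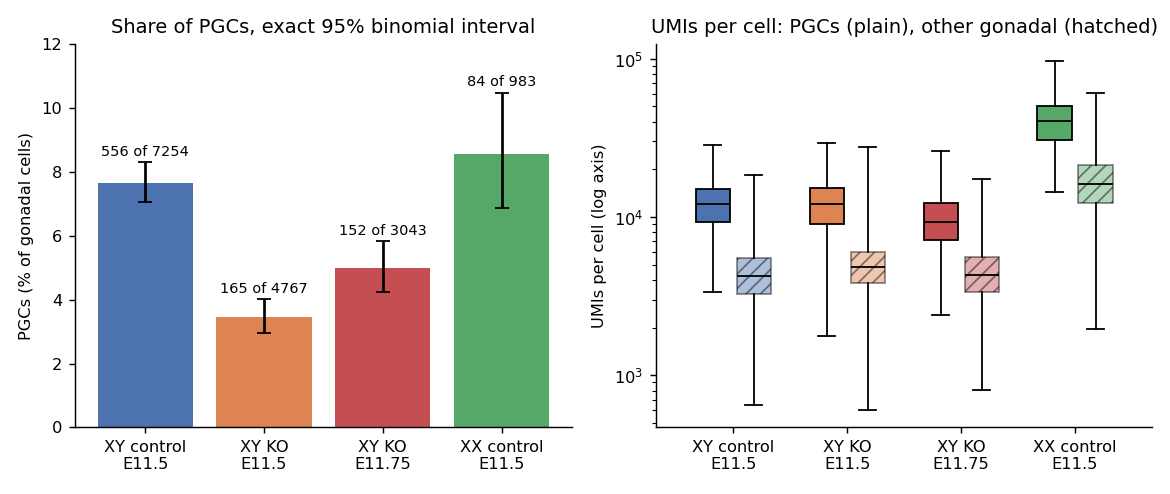
Left, bars show PGCs as a percentage of gonadal cells in each of the 4 samples, with exact 95% binomial intervals and the cell numbers above. The E11.5 KO bar, at 3.46%, is the lowest. Right, boxes show UMIs per cell on a log axis (median, quartiles, and whiskers to the lowest and highest cell) for PGCs (plain) and the other gonadal cells (hatched), with PGCs deeper in every sample and the XX sample deepest.

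The name given to these cells was set beside 5 germ cell markers, some of which may have served to name them. With every cell thinned to 5000 UMIs, Dppa5a, a gene of pluripotent and germ cells, was detected in 100% of PGCs of every sample, and Dppa3, a maternal effect gene first switched on in germ cells, in 99.5%, 99.3%, 99.3% and 100% (XY control, E11.5 KO, E11.75 KO and XX control, the order used below). Pou5f1 was detected in 65.4%, 69.3%, 78.7% and 75% of PGCs. Dazl, an RNA-binding protein gene, was detected in 71.2%, 58.2%, 87.9% and 45.2%, and Ddx4, an RNA helicase gene, in 33.7%, 18.3%, 37.6% and 26.2%. Over these 5 markers the median log2 ratio to the XY control, on the CPM scale explained below, was 0.04, 0.13 (-0.15 with TMM) and 0.08. At least 3 of the 5 were found in 92.9%, 86.9%, 97.2% and 88.1% of PGCs. Endothelial cells, which should lack them, gave the background of free RNA. At the same depth Dazl was found in 0 of 424 XY control endothelial cells and Ddx4 in 0.708%, whereas the abundant Dppa5a reached 11.6%. Untouched median depths were 11990.5 UMIs for XY control PGCs and 4796 for endothelial cells, and 7 and 451 cells were too shallow to be thinned.

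Among genes with at least 200 UMIs in XY control PGCs, the highest ratios of CPM (counts of UMIs scaled to a common total per sample) to the other gonadal cells were those of Tcl1, a co-activator of AKT kinase, Dazl and Sox2, at log2 ratios of 7.60, 7.59 and 7.44. Next came Lefty2, an inhibitor of NODAL (7.33), and the transcription factor gene Isl2 (7.31). Further genes among the 15 highest were Hormad1 (a meiotic chromosome axis protein), Dppa4, Sall4, Tex19.1 (a guard against retrotransposons), Ap3b2, Rbmxl2, Tbx4, Usp26, Cpeb1 and L1td1. Since these genes shaped the clusters, this is a description of the name, not a test of it.

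Markers of other cells were low in PGCs, with exceptions. The 10 markers of gonadal supporting and epithelial cells summed to 57.3, 65.0, 79.6 and 52.6 CPM in PGCs, against 1799, 1534, 2078 and 1388 in the other gonadal cells. The 9 mesenchyme markers summed to 176, 254, 248 and 144 CPM in PGCs, against 1860, 2295, 2523 and 1835. Both KO samples thus had the higher mesenchyme level in PGCs as in the surrounding cells. The 5 neural crest markers summed to 2.77 to 3.87 CPM and the 6 immune markers to 1.93 to 9.78 CPM, with the pan-leukocyte gene Ptprc at 0 UMIs in all 4 samples. The 8 erythroid markers summed to 1024, 502, 802 and 407 CPM in PGCs, which followed the 2942, 1271, 1694 and 892 CPM in the other gonadal cells. Among the XY samples, the study's limit on beta globin UMIs per cell was highest for the XY control and lowest for E11.5 KO. Summed endothelial markers (137, 166, 181 and 85.3 CPM) came mainly from Pecam1, an adhesion molecule that PGCs are known to make, and summed nephric markers (70.5, 53.3, 105 and 54.5 CPM) mainly from Lhx1, while the vascular gene Cdh5 had at most 12 UMIs and the nephric gene Pax2 at most 4. The part of such RNA from other cells in the results below was not tested.

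The host gene of the cluster separated the KO samples from the controls. Mir17hg (chromosome 14, 115042879 to 115046727, plus strand, mm10) is the long non-coding transcript from which the microRNAs are cut. It had 36.7 CPM in XY control PGCs, 110 in E11.5 KO, 144 in E11.75 KO and 37.4 in the XX control. The log2 ratios to the XY control were 1.58 (1.32 to 1.85), 1.97 (1.71 to 2.24) and 0.03. In the other gonadal cells the KO ratios were larger, at 2.98 and 3.10. Counts per gene do not show which stretch of the transcript the tags came from, so that the higher level of the host transcript is not a check of the deletion itself.

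In the following, a gene was compared where it reached 100 UMIs in the pair of samples, and a gene is called past the fold where its log2 ratio of CPM is at least 1 or at most -1. In E11.5 KO PGCs, 40 of 7455 genes (0.537%) were past the fold, 16 higher (0.215%) and 24 lower (0.322%). In E11.75 KO, 211 of 7418 genes (2.84%) were past it, 180 higher (2.43%) and 31 lower (0.418%). In the XX control, 81 of 7755 genes (1.04%) were past it, 22 higher (0.284%) and 59 lower (0.761%). Intervals of the log2 ratio lay above 0 for 6.95% of genes and below 0 for 9.48% in E11.5 KO, for 32.1% and 14.6% in E11.75 KO, and for 9.52% and 28% in the XX control. The scaling matters for the E11.75 sample. There the median gene had a log2 ratio of 0.19, and with TMM factors, which lower every E11.75 ratio by 0.28, the split of 180 higher and 31 lower genes turned into 38 higher (0.512%) and 119 lower (1.6%). The E11.75 values below are therefore to be read against 0.19. The median genes of E11.5 KO and of the XX control stood at -0.01 and -0.13, and their TMM splits were 15 higher (0.201%) and 26 lower (0.349%), and 31 higher (0.4%) and 41 lower (0.529%).

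Known targets of the cluster stayed under the fold in KO PGCs at E11.5, and most lay above 0 by their intervals at E11.75. Of 41 such genes in the table, 21 had enough UMIs in each comparison. Their median log2 ratios were 0.14 in E11.5 KO, 0.55 in E11.75 KO (0.28 with TMM) and -0.22 in the XX control. Intervals lay above 0 for 2 of the 21 in E11.5 KO (6.95% of all genes) and for 15 in E11.75 KO (32.1% of all genes). In the other gonadal cells the KO medians were -0.19 and 0.45. At E11.5 0 of the 21 were past the fold. At E11.75 2 were (also 2 with TMM), both higher, beside 2.43% of all genes (0.512% with TMM): Cdkn1a, the CDK inhibitor p21, and Ccnd2, a G1 cyclin. Bcl2l11, the pro-apoptotic BIM gene and a classical target, had 30.9, 29.8, 36.6 and 27.7 CPM, and its ratio in E11.5 KO was -0.05. E2f3, a transcription factor gene of S phase entry, had 58.6, 73.3, 84.1 and 46.5 CPM, with ratios of 0.33 and 0.52 in the KO samples. Of these, E2f3 stood above the median gene of -0.01 at E11.5 by more than its interval (0.04 to 0.60), and Bcl2l11 did not.

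The sites of these targets illustrate the pairing. Each line gives an 8mer (a match to bases 2 to 8 of the microRNA followed by an A, here in capitals) with 10 bases of the annotated 3′ UTR on either side, in the sense of the mRNA, from GENCODE M21 on mm10.
Bcl2l11, miR-17 site at chr2:128160452-128160459, plus strand: cccgactggaGCACTTTActgtctcagc
Bcl2l11, miR-92 site at chr2:128162449-128162456, plus strand: cactgtacctGTGCAATActgctgtaaa
E2f3, miR-17 site at chr13:29908077-29908084, minus strand: gaagacaccgGCACTTTAaactctgtgt

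Over all genes, those with an 8mer for any of the 4 families differed little from those without at E11.5. The motifs searched, on the mRNA strand only, were GCACTTTA (miR-17), GCACCTTA (miR-18), TTTGCACA (miR-19) and GTGCAATA (miR-92), none of which lies within another, and 2204 of 17457 genes with a 3′ UTR held at least 1 of them. In E11.5 KO PGCs the median log2 ratio was 0.04 over 1023 genes with an 8mer and -0.03 over 3833 genes without any site. In E11.75 KO the medians were 0.38 and 0.06, and in the XX control, which has the cluster, -0.20 and -0.08. Genes with sites have longer 3′ UTRs, and the XX control shows that the groups of genes also separate without a deletion, in the opposite direction. Within 3 classes of 3′ UTR length with equal numbers of genes, those with an 8mer exceeded those without by 0.09, 0.06 and 0.04 in E11.5 KO, from the shortest class to the longest, and by 0.26, 0.15 and 0.12 in E11.75 KO. In the XX control the same differences were -0.12, -0.035 and -0.0053. In size they were larger than that of E11.5 KO in the shortest class and smaller than those of both KO samples in the 2 longer classes. No interval was computed for these differences. In the other gonadal cells of E11.5 KO the medians were -0.10 and -0.09, with differences of 0.07, 0.04 and 0.0051 within the length classes, and at E11.75 they were 0.36 and 0.04, with differences of 0.24, 0.14 and 0.11.

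Of the pluripotency genes 1 passed the fold, in E11.75 KO. Their median log2 ratio was 0.01 in E11.5 KO (18 genes, 0 past the fold, and -0.01 with TMM) and 0.06 in the XX control (19 genes, 0 past the fold). In E11.75 KO the median was -0.10 over 18 genes (-0.37 with TMM, and 0.04 among PGCs under 5% mitochondrial UMIs). There 1 gene was lower past the fold, beside 0.418% of all genes. Intervals lay above 0 for 3 of them and below for 6, beside 32.1% and 14.6% of all genes. Dppa5a had 3319, 3592, 2831 and 4231 CPM and Dppa3 1266, 1304, 1134 and 1343 CPM. Pou5f1 had 232, 245, 277 and 305 CPM, Sox2, its partner in stem cells, 174, 203, 225 and 174 CPM, and Nanog 65.1, 58.2, 57.8 and 75 CPM. Dppa5a thus ranged from 2831 CPM in E11.75 KO to 4231 in the XX control. Pou5f1 ranged from 232 CPM in the XY control to 305 in the XX control. The 9 fate regulators of germ cells, among them Prdm1, Tfap2c, Nanos3 and Dnd1, had medians of -0.10, 0.44 and -0.20, with 0 genes past the fold in any comparison. Dnd1, which protects germ cell mRNAs, had 242 CPM in the XY control and 178 and 182 in the KO samples.

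Several genes of gametogenesis licensing were lower in KO PGCs at E11.5, short of the fold. Over 13 such genes the median log2 ratio was -0.35, beside -0.01 for all genes, with 0 past the fold, 7 whose intervals lay below 0 (beside 9.48% of all genes) and 0 above. In run 1 alone the median was -0.17 and in run 2 alone -0.32. Ddx4 had 89.6 CPM in the XY control, 48.4 in E11.5 KO, 97.6 in E11.75 KO and 73.1 in the XX control. The E11.5 KO ratio was, on the log2 scale, -0.88 (-1.21 to -0.58). Asz1, a component of the piRNA machinery on mitochondria, had 58.5, 32.3, 51.3 and 41 CPM, with a ratio of -0.85 (-1.26 to -0.48) in E11.5 KO. Sycp3, a protein of the meiotic chromosome axis, had 14.8, 8.31, 18 and 16.9 CPM and a ratio of -0.79 on 17 UMIs in that KO. For these 3 genes E11.5 KO was the lowest of the 4 samples. Other late germ cell genes had smaller differences, as with Stk31 (105, 79.7, 120 and 95.5 CPM), Tex19.1 (191, 157, 166 and 154) and Mael (14.8, 9.29, 15.4 and 12.7), while Rhox9, an X-linked homeobox gene, was about level in E11.5 KO (749, 786, 566 and 940).

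Dazl was the licensing gene that varied most. Its CPM was 345 in the XY control, 246 in E11.5 KO, 620 in E11.75 KO and 141 in the XX control. The log2 ratios were -0.49 (-0.63 to -0.35), 0.85 (0.74 to 0.95, or 0.57 with TMM) and -1.29 (-1.44 to -1.16). Run by run the XY control gave 356 and 330 CPM, E11.5 KO 268 and 220, and the XX control 135 and 147, so that no run crossed into another sample. Dazl (chromosome 17, 50279395 to 50293636, minus strand) thus separated all 4 samples by more than counting error. It separated the samples with 2 runs by more than the difference between runs, which are technical replicates of a pool. E11.75 KO had 1 run. At E11.75 the whole licensing list had a median of -0.10, below the median gene. The single member past the fold was Dmrt1, beside 2.43% of all genes higher, and TMM left it at 0.93.

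**Figure D2:**
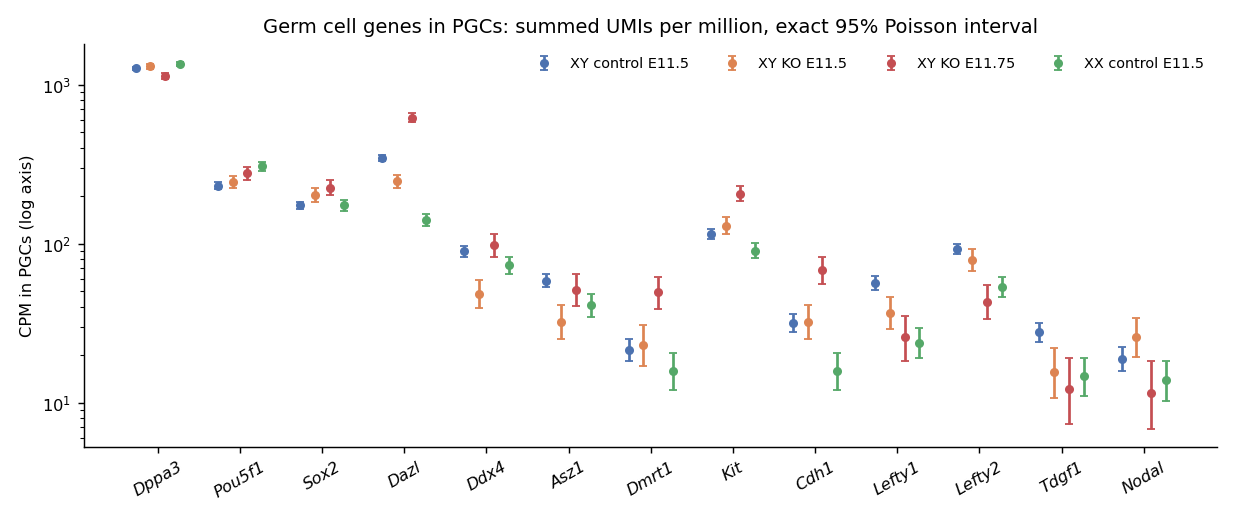
CPM of 13 germ cell genes in PGCs of the 4 samples on a log axis, 1 point per sample with its exact 95% Poisson interval. Dppa3, Pou5f1 and Sox2 lie closer together across samples than Dazl, which spreads from 141 CPM in the XX control to 620 CPM in E11.75 KO. Lefty1 and Tdgf1 are highest in the XY control.

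Genes of the piRNA pathway, which silences transposons in the male germ line, gave medians of -0.28 in E11.5 KO, 0.08 in E11.75 KO (-0.19 with TMM) and -0.25 in the XX control over 11 genes, with 0 past the fold in each. In E11.5 KO 5 intervals lay below 0 and 0 above, beside 9.48% and 6.95% of all genes. Ddx4, Asz1 and Mael belong to this list as well. Piwil2, the PIWI protein of this stage, had 29.8, 28.3, 38.5 and 22.7 CPM, and Tdrd12 48.4, 49.9, 52.0 and 52.1 CPM. PIWI genes of later stages were nearly silent, with at most 3 UMIs for Piwil1 and at most 8 for Piwil4 in a sample.

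Meiosis had hardly begun in any sample. Stra8, the retinoic acid target that starts it, had 0 UMIs in the XY control, 0 in E11.5 KO, 8 in E11.75 KO and 0 in the XX control. Zero counts allow up to 3 UMIs. Rec8, a meiotic cohesin that is another early retinoic acid target in germ cells, had 2.72, 4.89, 10.3 and 3.32 CPM on 19, 10, 16 and 12 UMIs. Both were thus highest in the oldest sample, for which no control of the same stage was analysed. Over the 9 or 10 meiosis genes with enough UMIs the medians were -0.07, 0.30 and 0.00. Past the fold was 1 gene, Sycp1 of the synaptonemal complex, lower in the XX control, beside 0.761% of all genes there. It had 14.5 CPM in the XY control and 6.09 in the XX control.

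Lefty1, Lefty2 and Tdgf1, genes of NODAL signalling, an early mark of male germ cells, were lower in E11.75 KO and XX PGCs than in XY control PGCs. Lefty1, a target and inhibitor of NODAL, had 56.6, 36.7, 25.7 and 23.8 CPM, with log2 ratios of -0.62 (-1.0 to -0.27), -1.12 (-1.65 to -0.67) and -1.24 (-1.60 to -0.91). Lefty2 had 92.4, 78.7, 43.0 and 53.4 CPM, with ratios of -0.23, -1.09 and -0.79. Tdgf1, the NODAL co-receptor CRIPTO, had 27.7, 15.6, 12.2 and 14.7 CPM, with ratios of -0.80, -1.15 and -0.90. The 3 genes were highest in the XY control, and the TMM values at E11.75 lay lower still, at -1.40, -1.37 and -1.42. Nodal itself had 18.9, 25.9, 11.6 and 13.8 CPM on 132, 53, 18 and 50 UMIs, so that it did not share this order in E11.5 KO. Over the 6 male pathway genes measured the medians were -0.27, -0.89 and -0.63 (-0.44, -0.47 and -0.57 among PGCs under 5% mitochondrial UMIs). Lower past the fold were 0, 3 and 1 genes, beside 0.322%, 0.418% and 0.761% of all genes. The members went different ways at E11.75, where Tdrd5, a piRNA pathway gene, had 0.70 (0.16 to 1.19) and Mov10l1, a piRNA helicase gene, 0.06. The later male genes Dnmt3l and Piwil4 had 0 and at most 8 UMIs in a sample. Lefty2 is also the 1 member of this list with an 8mer for the cluster, which is shown since the gene was not higher in the KO PGCs.
Lefty2, miR-19 site at chr1:180898612-180898619, plus strand: tgaaataagtTTTGCACAaaatttgaga

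Of the 11 surface and guidance genes of PGCs measured, 5 had intervals above 0 in E11.5 KO and 0 below, beside 6.95% and 9.48% of all genes. At E11.75 they went both ways, with 4 intervals above 0 and 4 below, beside 32.1% and 14.6% of all genes. Lower were Ifitm1 (1105, 1212, 759 and 1165 CPM), Ifitm2 (977, 1002, 798 and 1054 CPM) and Ifitm3 (637, 741, 544 and 764 CPM), interferon-induced membrane proteins of PGCs, and Epcam, an epithelial adhesion molecule (301, 398, 252 and 341 CPM), with ratios of -0.54, -0.29, -0.23 and -0.26. Higher were Kit, Cdh1, Itgb3 and Alpl. Kit, the receptor for the survival factor KITL, had 115, 130, 206 and 90.3 CPM, with a log2 ratio of 0.84 (0.65 to 1.03, or 0.56 with TMM) in E11.75 KO. Cdh1, the adhesion molecule E-cadherin, had 31.7, 32.3, 68.0 and 15.8 CPM, with ratios of 0.03, 1.11 (0.83 with TMM) and -1.0. Outside this list, Dmrt1, a transcription factor gene needed in germ cells of both sexes, had 21.5, 23.0, 49.4 and 15.8 CPM, with a ratio of 1.21 (0.79 to 1.61, or 0.93 with TMM) at E11.75. The XX control had the lowest and E11.75 KO the highest level of Kit, Cdh1 and Dmrt1. Lin28a, which blocks let-7 microRNAs, had 44.0, 36.7, 80.9 and 38.2 CPM, and Cpeb1, a regulator of stored mRNAs, 50.4, 41.1, 86.7 and 27.1 CPM. In E11.5 KO Kit, Cdh1, Dmrt1, Lin28a and Cpeb1 had ratios between -0.29 and 0.17. The surface list as a whole (11 genes) had medians of 0.17, 0.23 (-0.05 with TMM) and -0.03 (0.06 with TMM). Cdh1 at E11.75 was the single gene past the fold, beside 2.43% of all genes higher, a call that TMM took away.

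Most measured targets of the tumour suppressor p53 stood above the median gene in PGCs of both KO samples. This list of 31 genes was put together after the values had been seen, so its counts are a description. In E11.5 KO, 4 of the 18 members measured were higher past the fold and 0 lower, beside 0.215% of all genes higher, and their median log2 ratio was 0.52. In E11.75 KO, 6 of 16 were higher and 0 lower, beside 2.43% of all genes, with a median of 0.81 (0.54 with TMM). With TMM 3 members were higher past the fold in E11.5 KO, beside 0.201% of all genes, and 3 in E11.75 KO, beside 0.512%. In the XX control 0 of 16 were higher and 1 lower, beside 0.284% and 0.761% of all genes, with a median of -0.38. In total 16 of 18 members lay above the median gene in E11.5 KO and 13 of 16 in E11.75 KO. At E11.75 11 intervals lay above 0 and 2 below, beside 32.1% and 14.6% of all genes.

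Btg2, an antiproliferative gene, had 8.17, 26.4, 18 and 7.48 CPM, and its log2 ratio in E11.5 KO was 1.69 (1.13 to 2.26). Phlda3, an inhibitor of AKT, had 15.3, 38.1, 30.8 and 4.98 CPM, with ratios of 1.32, 1.02 and -1.59. Ccng1, a cyclin G gene, had 32.4, 66.5, 64.2 and 18.3 CPM, with ratios of 1.04, 0.99 and -0.82. In each of these genes both KO samples lay above both controls. The same order held for Zmat3, an RNA-binding protein (13.2, 26.4, 23.1 and 9.14 CPM), Sesn2, a stress sensor upstream of mTOR (22.6, 41.5, 56.5 and 15.5 CPM), and Trp53inp1, a stress-induced gene (43.8, 81.1, 91.1 and 28.2 CPM). It also held for Mdm2, the ubiquitin ligase that restrains p53 (84.5, 123, 141 and 50.7 CPM), for Cdkn1a (16.9, 32.7, 44.9 and 15.2 CPM) and for Bbc3, the pro-apoptotic PUMA gene, which had few UMIs (7.74, 15.2, 14.8 and 5.81 CPM). Members that did not follow it include Bax (455, 534, 384 and 390 CPM), Triap1 and Xpc. Trp53 itself had 200, 187, 214 and 178 CPM, with ratios of -0.10, 0.10 (-0.18 with TMM) and -0.17.

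The difference was not seen in the somatic cells at E11.5. The list, and the omission of 2 abundant genes below, were chosen after the values had been seen, so this contrast is a description. The summed p53 targets, leaving out the abundant Rps27l and Bax, reached 513 CPM in XY control PGCs, 801 in E11.5 KO, 861 in E11.75 KO and 378 in the XX control. The log2 ratios were 0.64 (0.56 to 0.73), 0.75 (0.66 to 0.84, or 0.47 with TMM) and -0.44 (-0.53 to -0.35). With these 2 genes the sum over all 31 was 2055, 2581, 2372 and 1873 CPM, with ratios of 0.33, 0.21 (-0.069 with TMM) and -0.13, so that at E11.75 the whole sum did not stand above the median gene by more than its interval (0.15 to 0.26). For the 29 genes in the 12 other cell types the ratio ranged from -0.26 to 0.04 in E11.5 KO and from -0.17 to 0.47 in E11.75 KO. The -0.17 was that of the adrenal gland, on 27 UMIs of 8 cells. Every other type was higher in E11.75 KO than in the XY control. By run the XY control PGCs gave 522 and 500 CPM, E11.5 KO 853 and 740, and the XX control 363 and 397. The levels thus did not overlap between KO and control runs. Counted cell by cell, these same UMIs kept the order of the sums, which adds no separate support. With each PGC thinned to 5000 UMIs the mean number of UMIs from these 29 genes was 2.62 in the XY control, 4.05 in E11.5 KO, 4.55 in E11.75 KO and 1.93 in the XX control, and 11.48%, 4.58%, 4.26% and 20.2% of PGCs had none. In the other gonadal cells the means were 3.26, 2.97, 3.78 and 3.15. The median mitochondrial share of UMIs in PGCs, a sign of cell quality, was 3.87%, 4.31%, 5.99% and 3.16%. Among PGCs under 5% the list medians in the KO samples were 0.50 and 0.63.

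**Figure D3:**
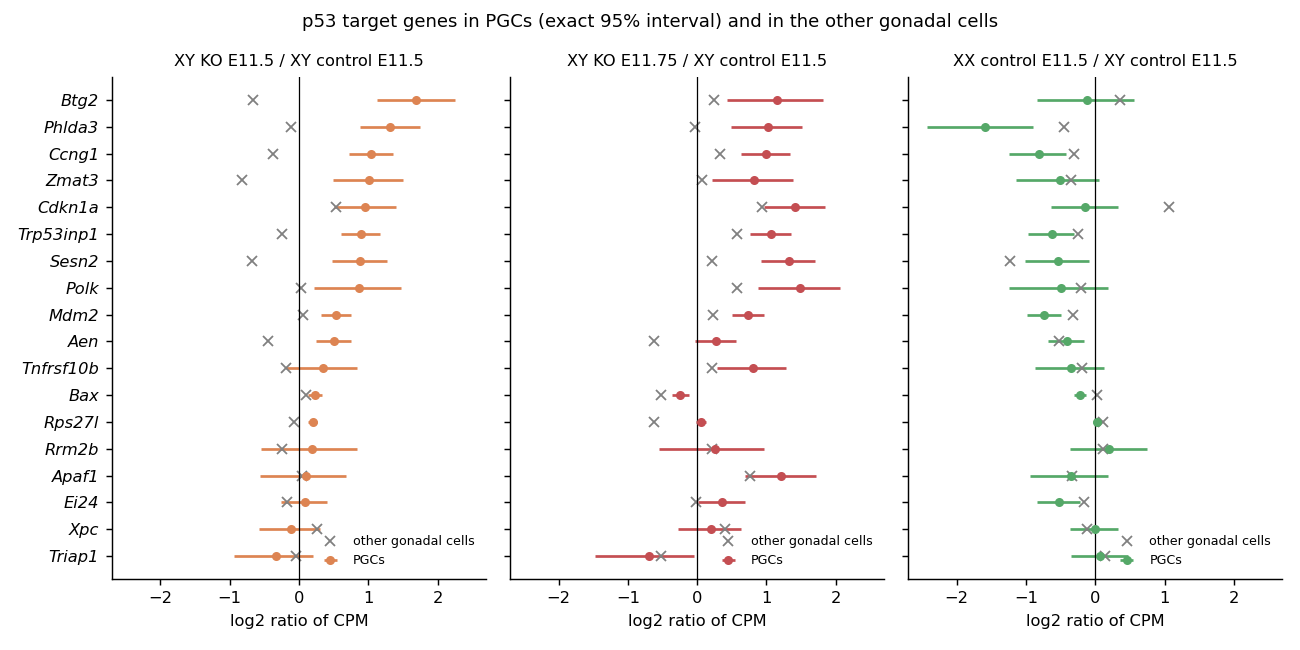
Log2 ratios to the XY control for the 18 p53 target genes with at least 100 UMIs in the E11.5 comparison. Points with bars are PGCs with exact 95% intervals and crosses are the other gonadal cells. In E11.5 KO, 12 of the 18 intervals lie above 0 in PGCs, beside 6.95% of all genes, whereas Btg2, Zmat3 and Sesn2 lie below 0 in the other gonadal cells.

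Of 30 p53 targets with an annotated 3′ UTR, 4 carried an 8mer for the cluster. They are shown because they belong to both groups, p53 targets and genes with sites. Polk, a translesion DNA polymerase gene, had log2 ratios of 0.86 and 1.48 in the KO samples, and Aen, a p53-induced nuclease gene, 0.50 and 0.28, the latter 0.00 with TMM. Ccng1, Zmat3, Sesn2, Trp53inp1, Mdm2 and Cdkn1a had no 8mer of these families in the 3′ UTR searched. Shorter sites of these genes are not given here, and Cdkn1a is also on the list of known targets above.
Phlda3, miR-19 site at chr1:135768991-135768998, plus strand: gtaccctttcTTTGCACActtcttccct
Btg2, miR-92 site at chr1:134076323-134076330, minus strand: ctcagtcactGTGCAATAgtcccaggat
Btg2, miR-92 site at chr1:134076022-134076029, minus strand: ttgtagatgtGTGCAATAtttactgttc
Polk, miR-92 site at chr13:96482062-96482069, minus strand: aggaagacaaGTGCAATAatgcctcccc
Aen, miR-19 site at chr7:78910376-78910383, plus strand: tcttaagccaTTTGCACAgtgataaata

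Apoptosis genes as a fixed list, which includes Bbc3, Mdm2, Ccng1 and Cdkn1a, had medians of 0.16, 0.43 and -0.16 over 14 genes. Higher past the fold were 1, 2 (1 with TMM) and 0, beside 0.215%, 2.43% (0.512% with TMM) and 0.284% of all genes. Of the BCL2 family, E11.5 KO ratios were 0.03 for Mcl1 and -0.10 for Bcl2l1, both protective, and 0.25 (-0.16 to 0.64) for Bad and 0.23 (0.13 to 0.33) for Bax, promoters of cell death.

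Genes of S phase and G2/M stayed under the fold. The 43 S phase genes had medians of 0.06, 0.21 (-0.07 with TMM) and -0.11, and the 49 G2/M genes -0.10, 0.25 (-0.02 with TMM) and -0.20, with 0 past the fold in any comparison. G2/M intervals lay above and below 0 for 3 and 10 genes in E11.5 KO, beside 6.95% and 9.48% of all genes. The counts were 27 and 6 in E11.75 KO (32.1% and 14.6%) and 1 and 25 in the XX control (9.52% and 28%). For S phase genes they were 3 and 5, 19 and 4, and 5 and 13. The 10 to 13 G1 cyclins and CDK inhibitors had medians of 0.24, 0.55 (0.27 with TMM) and -0.14. At E11.75 3 of them (2 with TMM) were higher past the fold, beside 2.43% of all genes (0.512% with TMM). They were Cdkn1a, Ccnd2 (14.9, 18.1, 36.6 and 21.3 CPM) and Cdkn2a, which encodes p16 and p19ARF (16.5, 23.5, 34.0 and 14.1 CPM, and 0.78 on the log2 scale with TMM, under the fold). Cdkn2a is held low by Polycomb proteins in most embryonic cells, and its ratio in E11.5 KO was 0.52 (-0.01 to 1.01).

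A run of 13 neighbouring genes on chromosome 7 was low in KO PGCs. It was noticed in these values, since Tgfb1, Bckdha, Exosc5, Pafah1b3 and Dmac2, 5 of the 8 lowest genes named by size in E11.5 KO, lie there. Here genes from 50 UMIs in the XY control and E11.5 KO together were taken. The run was chosen with these values seen, so its counts are a description. The run spans 25267704 to 25788705 (521 kb, mm10), from Cic to Axl. All 13 genes lay below 0 in E11.5 KO, with a median log2 ratio of -0.94 and a range of -2.33 to -0.42, and 12 of 13 in E11.75 KO, with a median of -0.68. In the XX control the median was -0.31. The 10 expressed neighbours before the run had medians of 0.11, 0.11 and -0.19 in the 3 comparisons, and the 10 after it -0.09, -0.01 and -0.22. The nearest neighbour after it, Egln2, starts only at 27158658, so the neighbours do not locate the end on that side. Across the genome, of 7163 windows of 7 consecutive genes the lowest median in E11.5 KO, -1.03, was centred on Bckdha, and the lowest elsewhere was -0.42. At E11.75 the lowest of 7127 windows was the same, at -0.79, with -0.60 as the lowest elsewhere.

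Tgfb1, the growth factor TGF-beta 1, had 28.2, 5.38, 5.13 and 22.2 CPM on 197, 11, 8 and 80 UMIs, with log2 ratios of -2.33 (-3.42 to -1.52), -2.37 and -0.34. Exosc5, a subunit of the RNA exosome, had 265, 119, 128 and 251 CPM. Pafah1b3, a subunit of a platelet-activating factor hydrolase, had 197, 96.3, 67.4 and 213 CPM. Bckdha, of branched amino acid breakdown, had 79.4, 34.7, 50.7 and 59.8 CPM. Apart from Tgfb1 and the sparsely counted Prr19, the ratios in E11.5 KO lay between -1.18 and -0.42. The run was low in the somatic cells too, with medians of -1.03 and -0.89 in the other gonadal cells. The log2 ratio of the summed UMIs of the 13 genes ranged from -1.31 to -0.70 in E11.5 KO and from -0.97 to -0.55 in E11.75 KO over the 12 other cell types. By run the summed genes gave 818 and 809 CPM in XY control PGCs, 395 and 403 in E11.5 KO and 423 in E11.75 KO. The deletion of the microRNA cluster, which lies on chromosome 14, and any other property of the edited ES cells cannot be told apart here.

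**Figure D4:**
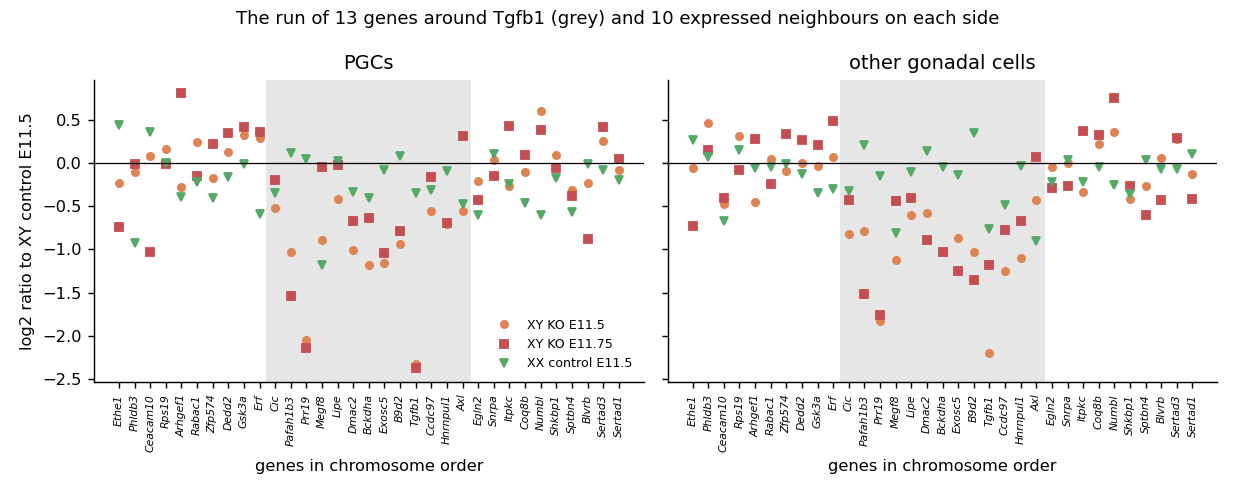
Log2 ratios to the XY control for the 13 genes of the chromosome 7 run (grey band) and 10 expressed neighbours on each side, in chromosome order, in PGCs (left) and the other gonadal cells (right). Each point is 1 gene in 1 sample. Both KO samples drop within the band in both panels, with medians of -0.94 and -0.68 in PGCs, and the XX control does not drop to the same depth.

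H19, the imprinted non-coding RNA made from the maternal chromosome, had the lowest log2 ratio of the genes named by size in E11.5 KO PGCs. It had 52.9 CPM in the XY control, 6.35 in E11.5 KO, 10.9 in E11.75 KO and 68.1 in the XX control, on 369, 13, 17 and 246 UMIs. The log2 ratios were -3.00 (-3.98 to -2.26), -2.24 (-3.07 to -1.58) and 0.37. In the controls the somatic cells of the gonad made far more of it, with 528 CPM in the XY and 912 in the XX control. In E11.5 KO and E11.75 KO the somatic cells of the gonad had only 8.37 and 3.87 CPM. The part of free RNA from those cells in the PGC values was not tested. Igf2, the paternally expressed neighbour, had only 26, 20, 11 and 16 UMIs in PGCs. Over 20 imprinted genes the medians were 0.24, 0.29 and 0.02. In each KO 1 gene (H19) was lower past the fold, beside 0.322% of all genes in E11.5 KO and 0.418% in E11.75 KO. In the XX control 1 was higher, beside 0.284% of all genes (Phlda2, a growth restrainer, 105 CPM in the XY control and 212 in the XX control). Other imprinted genes were higher in both KO samples without passing the fold, as with Meg3, a maternal non-coding RNA (48.9, 80.2, 80.9 and 33.5 CPM), and Igf2r, the receptor that clears IGF2 (44.8, 60.1, 66.1 and 38.8 CPM).

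The remaining genes named by size in E11.5 KO were Mt1, Ldha, Igfbp5, Porcn, Sdc4 and Cd81 among the highest and Usp26 and Slc7a7 among the lowest. Mt1, a metal-binding metallothionein, had 49.9, 124, 84.7 and 62.9 CPM and a log2 ratio of 1.31 (1.07 to 1.55). Sdc4, a heparan sulphate proteoglycan of the cell surface, had 42.8, 87.0, 97.6 and 22.4 CPM, with ratios of 1.02, 1.19 and -0.93, and was thus high in both KO samples and low in the XX control. Igfbp5 had 28.5, 60.6, 37.2 and 11.6 CPM in PGCs but 790, 1268, 1639 and 554 in the other gonadal cells, and Cd81 46.0, 91.4, 56.5 and 33.8 CPM against 407, 436, 362 and 380. Both thus had a far higher level in the surrounding cells than in PGCs, as did the mesenchyme markers given above, and the part of RNA from those cells was not tested. Usp26, an X-linked deubiquitinase gene of the germ line, had 33.8, 14.2, 30.8 and 8.86 CPM and was nearly absent from the other gonadal cells, at 0.296 CPM in the XY control.

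XX and XY control PGCs differed in their X chromosomes. Y-linked genes were found in XY samples, as with Uba1y, a ubiquitin-activating enzyme gene, with 159, 57 and 63 UMIs, and in XX PGCs all 9 Y-linked genes on the list had 0 UMIs. Sry had 0 UMIs in PGCs of every sample. Over 236 X-linked genes the median log2 ratio of XX to XY control PGCs was 0.23, beside -0.14 over 7449 autosomal genes, a difference of 0.37 or 1.29-fold. In total 84.3% of the X-linked genes lay above the autosomal median. In the other gonadal cells the difference was 0.06 over 430 X-linked genes, and in 11 single cell types it ranged from 0.02 to 0.10. Of 216 X-linked genes measured in both, 178 stood higher against the autosomes in PGCs than in the other gonadal cells. KO PGCs, which are XY like their control, had differences of 0.03 and -0.08.

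**Figure D5:**
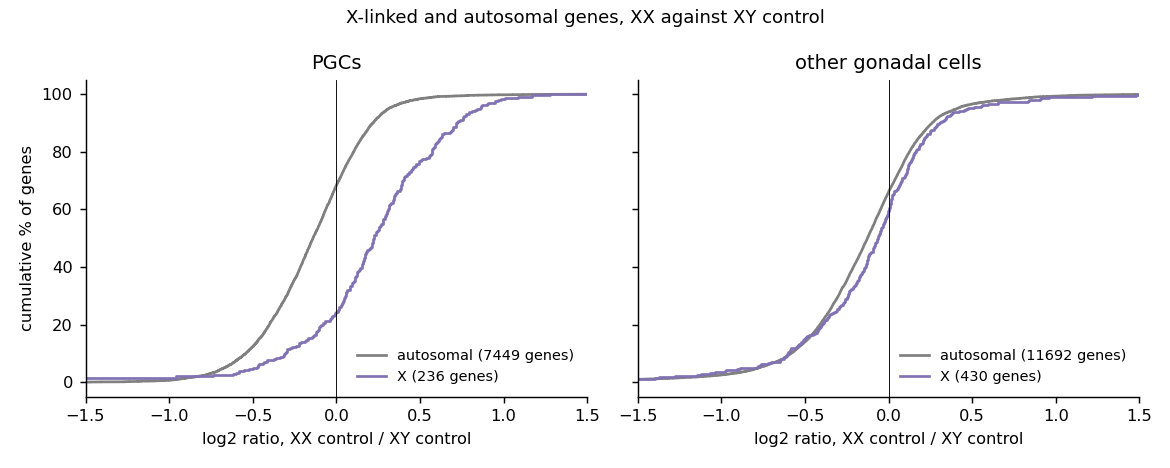
Cumulative percentage of genes by log2 ratio of the XX to the XY control for X-linked and autosomal genes, in PGCs (left) and the other gonadal cells (right). In PGCs the X-linked curve is shifted to the right by 0.37 at the median, whereas both curves nearly coincide in the other gonadal cells, where the shift is 0.06.

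Xist, the RNA that coats and silences an X chromosome in XX cells, was low in XX PGCs. It had 43.7 CPM there, against 710 CPM in the other gonadal cells of the same sample and 595 to 992 CPM in the 11 single cell types. The XY samples had 2.44, 6.84 and 4.49 CPM in PGCs, on 17, 14 and 7 UMIs. An Xist UMI was found in 28 of 84 XX PGCs (33.3%, median 0 and maximum 39 UMIs) and in 866 of 899 other XX gonadal cells (96.3%, median 11), although the PGCs were deeper. Other X-linked genes of chromatin and inactivation were higher in XX PGCs, such as Rlim, an activator of Xist (42.7 CPM in the XY and 64.2 in the XX control), and Kdm6a, a histone demethylase that escapes inactivation (17.3 and 31.0 CPM).

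Several of the largest sex differences lay on the X chromosome as well. Porcn, which lipidates WNT proteins, had 24.5 CPM in the XY and 59.5 in the XX control, but also 51.3 and 34.7 CPM in the XY KO samples, and Pin4, a prolyl isomerase, 120 and 269 CPM. Mid1 had 44.4 CPM in the XY and 3.05 in the XX control, and Tpm3-rs7, a tropomyosin-related gene of chromosome 14, 59.0 and 3.6 CPM. Both were low as well in the other gonadal cells of the XX sample, at log2 ratios of -3.17 and -4.43, and sex cannot be told apart from breeding in this pair of samples. Hist1h1b and Hist1h1e, which encode linker histones, were higher in the XX control, at 76.2 and 182 CPM and at 13.9 and 29.6 CPM. Bmyc had 34.2 and 76.7 CPM in PGCs against 661 and 975 CPM in the other gonadal cells, and its difference was absent among XX PGCs under the XY limits (log2 ratio -0.037).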

How the data were processed

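Gonads with mesonephros were methanol-fixed, pooled per group and profiled with 10x 3′ chemistry. The authors aligned reads with Cell Ranger 6.1.1 to mm10 with an added exon of Sry, merged technical runs (2 per sample, 1 for E11.75 KO), filtered cells in Seurat, removed doublets with DoubletFinder, and named clusters of the integrated data. The deposited values used here are raw UMI counts per gene and cell, with the authors' cell type names and the percent of UMIs from mitochondrial genes, which the authors computed per cell. No further doublet calling was done, and no PGC barcode was shared between libraries (0 in 21 pairs of libraries).

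Counts were summed over PGCs per sample (6979059, 2045915, 1557963 and 3611705 UMIs for XY control, E11.5 KO, E11.75 KO and XX control) and over the other 5 gonadal cell types. CPM were taken over these totals with exact Poisson intervals. Log2 ratios used a prior count of 0.5 and exact binomial intervals, where a gene reached 100 UMIs in the pair of samples (50 for the chromosome 7 run and its neighbours). Shares have Clopper-Pearson intervals. The level of these intervals is 95%, and they cover counting error only. TMM factors (edgeR 4.0.16, R 4.3.3) were an alternative, as were other totals, minimums, prior counts, runs and cell filters. Other steps used Python 3.11.15, numpy 2.4.6, pandas 2.3.3, scipy 1.17.1 and matplotlib 3.10.9, and were tested on simulated data. Gene positions and 3′ UTRs (the longest per gene) came from GENCODE M21 and microRNAs from RefSeq.

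Genes named were those of 27 lists (germ cell markers, fate regulators, pluripotency, licensing, meiosis, male pathway, piRNA, DNA methylation, surface, niche responses, apoptosis, known targets, cell cycle, glycolysis, imprinted, X inactivation, Y-linked, stress and markers of other cells), Mir17hg, and genes chosen by size with at least 200 UMIs: the 8 highest and 8 lowest of E11.5 KO that kept their sign at E11.75, the 5 highest and 5 lowest of the XX control, and the 15 highest in PGCs over other gonadal cells, leaving out mitochondrial, ribosomal protein and globin genes. The members and lists were chosen with earlier results of these data known. The p53 target list and the chromosome 7 run were added after the values had been seen.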

Additional observations from a re-analysis of the deposited data

Results flagged for a closer look

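Several of the named genes stood higher in KO than in XY control PGCs and lower in KO than in XY control cells for the other gonadal cell types. Only named genes past the fold in PGCs were searched. They include the p53 target list, which was put together after the values had been seen, so that p53 targets among them are a description. With 1 sample per group the difference between the cell types was not tested. In E11.5 KO, Btg2 had a log2 ratio of 1.69 in PGCs and -0.66 in the other gonadal cells, Zmat3 had 1.01 and -0.82, and Ccng1 had 1.04 and -0.38. All 3 are p53 targets, and the summed p53 target genes, without Rps27l and Bax, had 0.64 in PGCs and -0.17 in the other gonadal cells. Sdc4, which is not on that list, had 1.02 and -0.40. In E11.75 KO, for which no control of the same stage was analysed, Dmrt1 had 1.21 in PGCs and -0.44 in the other gonadal cells, and Id1 had 1.13 and -0.13. The TMM scaling lowered the PGC values of Dmrt1 and Id1 to 0.93 and 0.86.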

How the results depend on the processing

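No paired analysis was possible because each group had 1 sample. As a share of all cells PGCs were 2.36%, 0.967%, 1.79% and 2.29% (XY control, E11.5 KO, E11.75 KO and XX control), whereas of gonadal cells alone the XY control runs gave 8.37% and 6.95% and the XX control under the XY limits 2.40%. Median UMIs per PGC were 12626, 13038.5 and 10729 in the XY samples among cells under 5% mitochondrial UMIs, and 27421 in XX PGCs under the XY limits. At least 3 of 5 markers were found in 79.7%, 76.6%, 88.7% and 73.8% of PGCs thinned to 3000 UMIs, in 98.5%, 95.8%, 100% and 96.4% at 8000, and, without thinning, in 99.6% of XY control, 97.0% of E11.5 KO and 100% of XX PGCs. Genes past the fold numbered 103, 445 and 188 (E11.5 KO, E11.75 KO, XX control) with a minimum of 50 UMIs, 14, 44 and 22 with 300, and 25, 136 and 50 in run 2 alone, where the single E11.75 run met control run 2. Among XX PGCs under the XY limits, which left 20 cells, they numbered 318, and Bmyc turned to -0.037.

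The split of higher and lower genes moved at E11.75 from 180 and 31 to 38 and 119 with TMM, 162 and 84 under 5% mitochondrial UMIs (41 of 152 PGCs), 255 and 11 with a prior count of 5, and 33 and 11 with a minimum of 300. In E11.5 KO it moved from 16 and 24 to 19 and 16 with totals that left out mitochondrial, ribosomal protein and globin genes, to 20 and 10 with a prior count of 5 and to 9 and 26 under 5% mitochondrial UMIs, and in the XX control from 22 and 59 to 31 and 41 with TMM, to 35 and 283 under the XY limits and to 14 and 96 in run 1 alone. With TMM the E11.75 medians were -0.37 for pluripotency, -0.38 for licensing, -1.16 for male pathway, 0.28 for known target and -0.51 for glycolysis genes. Against the XX control, an alternative chosen after seeing the data like the 5% limit, the male pathway median was 0.59 in E11.5 KO, and the known target median 0.77 in E11.75 KO. With 7-base sites included, genes with sites exceeded those without by 0.039 and 0.26 in the KO samples. The summed p53 targets moved to 0.33, 0.21 and -0.13 with Rps27l and Bax, and to 0.47 in E11.75 KO and -0.35 in the XX control with TMM, both chosen after seeing the data. The cause of these changes was not tested. In total 331 of 338 recomputed medians of the main gene lists, and 11281 of 11848 single gene ratios, stayed within the bounds used (for medians the order statistics of the members' ratios, a spread over genes, and for single genes the counting interval). Part of these totals was fixed in advance. A changed minimum leaves the ratio of a single gene as it was, and the XY limits removed no XY cell. With TMM 169 of 1053 single gene ratios moved, and under the XY limits 151 of 1029 moved and 1 turned its sign. The depth of single genes, often under 100 UMIs in a KO sample, limits their precision.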

Other observations

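Genes that respond to signals of the niche went both ways in each comparison. Over 16 response genes the median log2 ratio was -0.07 in E11.5 KO, with 0 past the fold, and 0.31 in E11.75 KO (0.03 with TMM). At E11.75 2 were higher past the fold (0 with TMM) and 1 lower, beside 2.43% and 0.418% of all genes. Over 17 genes the median was -0.14 in the XX control, with 0 past the fold and 6 intervals above 0 and 6 below (9.52% and 28% of all genes). Id1, a direct target of BMP signals, had 85.0, 75.3, 186 and 115 CPM in PGCs of the XY control, E11.5 KO, E11.75 KO and the XX control. Its log2 ratio at E11.75 was 1.13 (0.92 to 1.34, or 0.86 with TMM). Id2 and Id4 of the same family had E11.75 ratios of 0.92 and 0.88, and Id3, the most abundant, 0.05 (-0.23 with TMM). Axin2, a feedback gene of WNT signalling, had 13.5, 16.6, 32.1 and 14.4 CPM, with an E11.75 ratio of 1.26 (0.98 with TMM). Crabp1, which binds retinoic acid, had 38.0, 46.4, 18 and 67.6 CPM and was the gene past the fold in the lower direction at E11.75. Etv5, a target of FGF and GDNF signals, had 159, 141, 211 and 88.9 CPM in PGCs.

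Genes of energy metabolism went different ways in the KO samples. The 20 glycolysis genes had a median log2 ratio of 0.25 in E11.5 KO, -0.23 in E11.75 KO (-0.51 with TMM) and -0.14 in the XX control. In E11.5 KO 1 was higher past the fold, beside 0.215% of all genes. There 10 intervals lay above 0 and 2 below, beside 6.95% and 9.48% of all genes. At E11.75 2 lay above 0 and 9 below, beside 32.1% and 14.6% of all genes. The other gonadal cells had medians of 0.38, -0.19 and -0.15, so that these directions were shared with PGCs. Ldha, lactate dehydrogenase A, had 63.0, 136, 86.7 and 70.9 CPM, with a ratio of 1.11 (0.89 to 1.33) in E11.5 KO. The other gonadal cells had more of it, at 388, 521, 317 and 368 CPM. Genes of DNA methylation and demethylation (9 genes) had medians of 0.07, 0.55 (0.28 with TMM) and -0.28. Past the fold was 1 gene at E11.75, Zfp445, a regulator of imprints, beside 2.43% of all genes higher there. It had 27.8, 31.8, 59.7 and 21.6 CPM and an E11.75 ratio of 1.11, or 0.83 with TMM, under the fold. Dnmt1, the maintenance methyltransferase, had 145, 157, 212 and 120 CPM, and Tet1, which oxidises methylated cytosine, 142, 163, 223 and 118 CPM. The 5 or 6 X inactivation genes had medians of 0.05, 0.56 and 0.54, with Xist higher past the fold in the XX control, beside 0.284% of all genes. The immediate early and heat shock genes, a sign of handling stress, had medians of -0.10, -0.21 and -0.29 with 0 past the fold.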
